A study of Mus musculus with 2 samples.

Results

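Cell cycle genes were followed in hippocampal microglia as a set of 33 members, chosen by gene symbol from a list fixed by phase, out of 32285 gene IDs in the data. The set has 16 S phase members and 17 mitotic members. Most products of the S phase members copy DNA or supply its building blocks, but Slbp binds histone mRNAs and Ung removes uracil from DNA. Products of the mitotic members largely serve to condense, attach and separate chromosomes. The S phase members are Pcna, Mcm2, Mcm3, Mcm4, Mcm5, Mcm6, Mcm7, Tyms, Rrm1, Rrm2, Gins2, Pclaf, Dut, Slbp, Ung and Rfc2. The mitotic members are Mki67, Top2a, Birc5, Ube2c, Cdk1, Ccna2, Ccnb1, Ccnb2, Cenpa, Cenpf, Prc1, Nusap1, Hmmr, Tpx2, Aurkb, Bub1 and Hmgb2. All 33 were found in both libraries.

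The study made 2 droplet-based single-cell 3′ RNA libraries (10x Genomics): a Control library and a library of fetal growth restriction (FGR), which is impaired growth before birth. Both groups were Tmem119-tdTomato+/- mice at 3 weeks postpartum, carrying a fluorescent reporter of Tmem119, a gene largely restricted to microglia within the brain. Hippocampal cells were sorted on Tmem119, so cells with little Tmem119 could have been lost in both groups. The sources used here do not state how growth restriction was brought about, how many animals were pooled or their sex. Each group is 1 library, so differences between Control and FGR could not be tested against replicate spread. The 95% intervals given with levels, ratios and shares cover counting error only, and cells of a library are not replicates.

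In S phase the helicase of Mcm2 to Mcm7 unwinds DNA while the Pcna clamp holds the polymerases on it, and nucleotide enzymes such as ribonucleotide reductase feed the fork. In G2 and mitosis cyclin B with Cdk1 drives chromosome condensation, kinetochores attach chromosomes to the spindle, and the anaphase-promoting complex then destroys the cyclins. Transcription of the S phase genes is controlled largely by E2F factors, and that of the mitotic genes by the DREAM and MuvB complexes acting at CHR elements together with NF-Y at CCAAT boxes. Microglia multiply in the brain of newborn mice and divide little in the adult.

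Promoter sequence was set beside the phases because the members were divided by phase. The 250 bases before the transcription start (RefSeq, GRCm38.p6) were searched on both strands for E2F letters, which were TTCCCGC with its close variant TTGGCGC, the second variant TTCGCGC and the last variant TTGCCGC. The CHR letters were TTTGAA with the variant TTTAAA, and the NF-Y box was CCAAT, and matches were allowed to share bases. A window was found for 27 of the 33 members. E2F letters were present in similar shares, for 5 of 13 S phase members and 4 of 14 mitotic members, against 11.4% of 17491 protein-coding genes. CHR letters were present for 2 of 13 S phase members and 11 of 14 mitotic members, against 26.3% of protein-coding genes. CCAAT was present for 10 of 13 and 12 of 14, against 39.5%, and CHR letters together with CCAAT for 2 of 13 and 10 of 14, against 10.9%. A match describes the letters and shows no binding. Below are the 150 bases before the start of 2 S phase members with E2F letters and of 3 mitotic members with CHR letters, shown as examples of the letters tied to each phase as background, and because Hmgb2 later stands apart. Each reads 5′ to 3′ on the gene's strand, with the searched letters in capitals. Mcm6, a helicase subunit, lies on the minus strand at chr1:128359706-128359855, and its TTGGCGC and TTCGCGC matches overlap on opposite strands at 2 places, 43 and 106 bases before the start. Rrm1, the large subunit of ribonucleotide reductase, lies on the plus strand at chr7:102441545-102441694, with TTCCCGC at 67 bases. Mki67, the proliferation marker that coats mitotic chromosomes, lies on the minus strand at chr7:135716380-135716529, with TTTGAA at 98 and 116 bases and TTGGCGC at 67 bases. Top2a, the topoisomerase that untangles chromosomes, lies on the minus strand at chr11:99024190-99024339, with the reverse of TTTGAA at 23 bases and 4 CCAAT boxes shown. Hmgb2, a DNA-bending chromatin protein, lies on the plus strand at chr8:57511693-57511842, with TTTGAA at 30 bases and CCAAT at 11 and 73 bases.
Mcm6: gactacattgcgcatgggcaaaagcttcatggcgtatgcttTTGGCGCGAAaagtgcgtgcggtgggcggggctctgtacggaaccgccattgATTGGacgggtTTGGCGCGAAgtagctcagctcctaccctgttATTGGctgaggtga
Rrm1: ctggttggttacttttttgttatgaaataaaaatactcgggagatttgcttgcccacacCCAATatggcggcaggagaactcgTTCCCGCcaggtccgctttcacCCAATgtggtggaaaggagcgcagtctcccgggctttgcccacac
Mki67: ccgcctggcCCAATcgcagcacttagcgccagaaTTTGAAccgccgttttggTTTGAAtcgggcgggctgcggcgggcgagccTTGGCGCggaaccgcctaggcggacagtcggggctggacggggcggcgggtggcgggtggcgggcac
Top2a: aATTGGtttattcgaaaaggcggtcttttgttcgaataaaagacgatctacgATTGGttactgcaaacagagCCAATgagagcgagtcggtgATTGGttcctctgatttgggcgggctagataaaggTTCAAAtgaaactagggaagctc
Hmgb2: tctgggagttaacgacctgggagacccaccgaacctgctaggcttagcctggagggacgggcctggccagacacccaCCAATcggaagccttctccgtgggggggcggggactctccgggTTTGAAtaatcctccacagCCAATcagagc

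A barcode was kept as a cell with at least 1500 unique molecular identifiers (UMIs, 1 for each captured transcript molecule), at least 200 genes and at most 10% mitochondrially coded UMIs, which left 10687 Control and 8618 FGR cells. Median depth was 4657 UMIs and 2057 genes in Control and 4919.5 UMIs and 2067 genes in FGR, and 31 barcodes occurred in both libraries. The median cell of each library held all 12 microglial markers, and 98.9% and 97.8% of cells held at least 10. Markers of other types were present at low summed levels that differed between the libraries. Astrocyte and neural progenitor markers came to 176 counts-per-million (CPM, UMIs scaled to the UMI total of the library's cells) in Control and 312 in FGR, vascular and fibroblast markers to 47.8 and 96.3 CPM, and red blood cell markers to 108 and 29.9 CPM. Red blood cell markers, which microglia do not transcribe, had a UMI in 9.72% of Control and 3.26% of FGR cells. A UMI in a barcode thus need not come from that cell's own transcription, and whether these were free RNA was not tested. The level of each member was therefore also read in free RNA, taken from barcodes with 10 to 100 UMIs. Counts are not divided by transcript length, so levels are compared between libraries and cells and not between genes. Of the members, 8 overlap a counted gene on the opposite strand (Mcm7, Gins2, Pclaf, Rfc2, Ube2c, Ccna2, Prc1 and Nusap1), and whether counting used strand is not given.

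The S phase members together came to 402 CPM in Control and 327 CPM in FGR, a ratio of FGR over Control of 0.814 (95% interval 0.797 to 0.832). Most of those UMIs belonged to Slbp and Pcna, and without them the sum was 147 and 135 CPM, a ratio of 0.921 (0.891 to 0.952). The S phase sum in free RNA was 384 and 335 CPM, near the level in the cells. Slbp, which binds the stem-loop of histone mRNAs, had 7234 UMIs in Control and 4053 in FGR, or 135 and 89.2 CPM, and was found in 43.3% and 34.0% of cells. Pcna, the sliding clamp, had 120 and 102.4 CPM and was found in 41.2% and 36.8% of cells. Both were thus detected in far more cells than the few dividing cells described below. Rfc2, a subunit of the clamp loader, had 35.2 and 32.2 CPM, and the helicase subunit Mcm3 33.4 and 30.7 CPM. The other helicase subunits had 15.8 and 12.3 CPM (Mcm7), 7.60 and 6.998 CPM (Mcm6), 6.54 and 5.96 CPM (Mcm4), 5.36 and 4.73 CPM (Mcm2), and 3.87 and 3.39 CPM (Mcm5). All 6 helicase subunits had a ratio below 1, and the interval of Mcm3 and of Mcm7 lay below 1. Gins2, a part of the helicase's GINS cofactor, had 5.69 and 5.88 CPM. Among nucleotide enzymes, Tyms, which makes thymidylate, had 10.8 CPM in each library, Rrm1 12.6 and 11.7 CPM, and Dut, which clears dUTP, 5.64 and 5.81 CPM. The rarest S phase members by cells were Rrm2, the small reductase subunit, with a UMI in 0.262% and 0.174% of cells, and Pclaf, a Pcna-binding factor, with a UMI in 0.496% and 0.487%. Ung, which removes uracil from DNA, had 65 UMIs in Control and 99 in FGR.

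The mitotic members together came to 227 CPM in Control and 283 CPM in FGR, a ratio of 1.248 (1.22 to 1.28), but this sum follows Hmgb2, which supplied 9163 of 12149 mitotic UMIs in Control and 10788 of 12861 in FGR. Without Hmgb2 the sum was 55.8 and 45.6 CPM, and the ratio turned to 0.818 (0.773 to 0.866). The S phase ratio was 0.814 with Slbp and Pcna and 0.921 without them. Of the mitotic UMIs without Hmgb2, 57.3% in Control and 58.7% in FGR lay in the few dividing cells described below. The interval does not cover how UMIs gather in single cells. Hmgb2 was found in 46.4% of Control and 58.3% of FGR cells. No other mitotic member was found in more than 4.15% of the cells of a library. Cdk1, the mitotic kinase, had 10.3 and 8.32 CPM, in 4.15% and 3.41% of cells. Cenpa, the histone variant of centromeres, had 7.37 and 6.65 CPM, and the kinetochore protein Cenpf 6.14 and 4.58 CPM. Mki67 had 4.80 and 4.995 CPM in 0.515% and 0.394% of cells, and Top2a 6.40 and 5.46 CPM in 0.702% and 0.638%. The shares of Mki67 and Top2a are below that of the red blood cell markers in the same library, so a lone UMI of either is not read as expression. Prc1, which bundles microtubules of the spindle midzone, had 4.74 and 3.21 CPM, and Ube2c, the ubiquitin-conjugating enzyme of the anaphase-promoting complex, 2.45 and 2.20 CPM. The cyclins had 1.251 and 0.814 CPM (Ccna2), 1.14 and 0.814 CPM (Ccnb1), and 1.51 and 0.880 CPM (Ccnb2). All of them were lower in the FGR library, and the interval of the ratio lay below 1 for Ccna2 and Ccnb2. Birc5 and Aurkb, partners in the chromosomal passenger complex, had 2.05 and 2.11 CPM and 1.85 and 1.45 CPM. The spindle proteins Nusap1, Hmmr and Tpx2 had 1.87 and 1.36, 1.62 and 1.39, and 1.59 and 0.968 CPM. Bub1, a kinase of the spindle checkpoint, had 35 UMIs in Control and 19 in FGR.

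**Figure D1:**
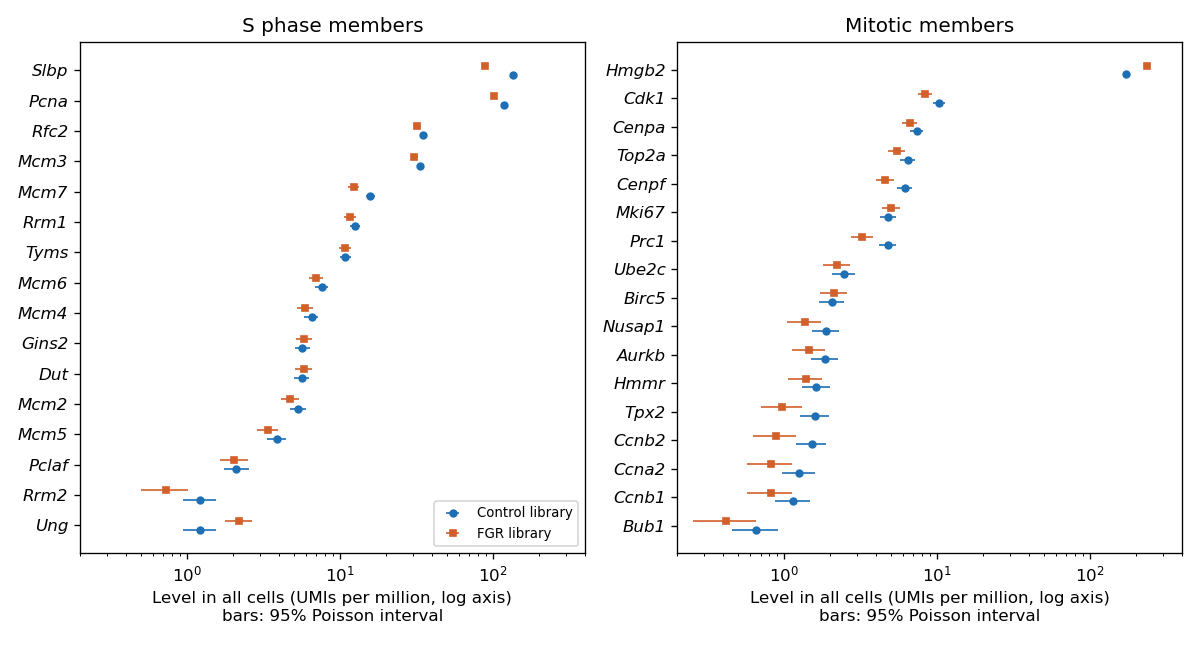
Level of each member in all cells of the Control library (blue circles) and the FGR library (orange squares) in CPM on a log axis, with 95% Poisson intervals; S phase members are on the left and mitotic members on the right. Slbp (135 and 89.2) and Hmgb2 (171 and 237) show the widest separation between the libraries among the members with narrow intervals.

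Comparing FGR with Control gene by gene, 27 of 33 members had a ratio below 1 and 6 had a ratio above 1. The 95% interval lay below 1 for 12 members (Pcna, Mcm3, Mcm7, Rrm2, Slbp, Rfc2, Cdk1, Ccna2, Ccnb2, Cenpf, Prc1 and Tpx2), above 1 for Ung and Hmgb2, and held 1 for 19. With barcodes of 5 or more UMIs of other types' markers left out, the intervals of Mcm3, Rrm2, Ccna2, Cenpf and Tpx2 held 1. Of the 30 members with at least 100 UMIs in both libraries together, 11 lay below 1 and 2 above, beside 37.3% and 19% of the 11914 genes with that many UMIs, so the count below 1 is near that of all genes. The median log2 ratio was -0.12 over the S phase members and -0.35 over the mitotic members, beside -0.06 over those 11914 genes. A gene was counted as higher or lower by size when it had those 100 UMIs and its interval lay wholly beyond 1.5-fold. By that rule 0 of 30 members tested were higher and 0 were lower, beside 3.19% of all genes tested higher and 1.28% lower, and Rrm2, Ccnb1 and Bub1 had too few UMIs to be tested. With a limit of 2-fold the members' counts were also 0 and 0, beside 1.67% of all genes higher and 0.336% lower. With a limit of a 25% difference (25% above 1 or the inverse), Ung and Hmgb2 counted as higher and Slbp as lower, beside 5.68% and 4.55% of all genes. Hmgb2 had a ratio of 1.39 (1.35 to 1.43). Slbp had a ratio of 0.660 (0.635 to 0.686). Ung had a ratio of 1.80 (1.30 to 2.49), on few UMIs and with 1.11% of FGR cells holding any. Pcna had a ratio of 0.857 (0.825 to 0.890), Mcm7 of 0.779 (0.699 to 0.868) and Cdk1 of 0.807 (0.706 to 0.922). The members thus differed between the libraries mostly by less than 1.5-fold, and Slbp, Ung and Hmgb2, the members past the 25% limit, came from both phases and differed in both directions.

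**Figure D2:**
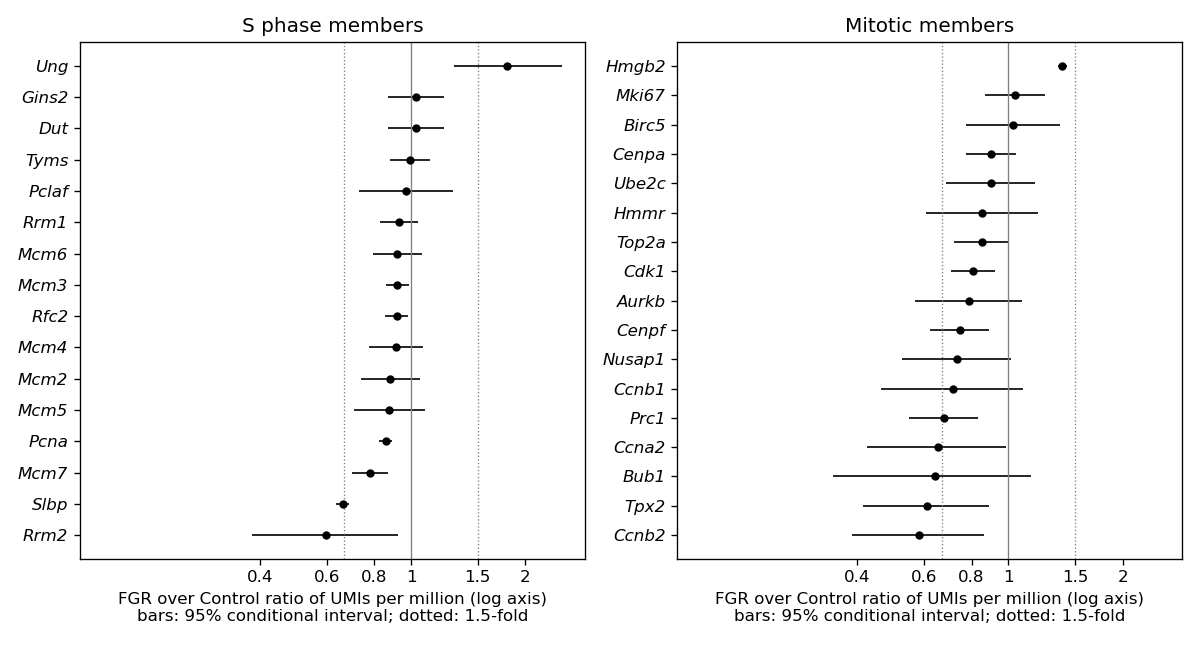
Ratio of FGR over Control for each member on a log axis, with 95% conditional intervals, for S phase members (left) and mitotic members (right); the solid line is a ratio of 1 and the dotted lines are 1.5-fold in each direction. Of the 33 points 27 lie below 1, and Hmgb2 (1.39) and Ung (1.80) have intervals above 1.

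Hmgb2, Slbp and Pcna were also read against values that moved with them. In free RNA, Hmgb2 had 134 CPM in Control and 189 in FGR, Slbp 123 and 91.3 CPM, and Pcna 129 and 110 CPM, each in the same direction as in the cells. Immediate early genes, which respond to stimulation and to tissue dissociation, were higher in FGR for 10 of 20 and lower for 1 by the size rule, with a median log2 ratio of 0.59. When the cells of each library were divided into 3 equal parts by their immediate early UMIs, Hmgb2 stood at 144, 162 and 210 CPM from the lowest to the highest part in Control and at 175, 223 and 310 CPM in FGR. Slbp stood at 91.7, 131 and 185 CPM in Control and at 70.6, 86.9 and 109 CPM in FGR. Pcna stood at 100.4, 120 and 139 CPM in Control and at 90.2, 103 and 113 CPM in FGR. All 3 genes were higher in the parts with more immediate early UMIs within each library. Slbp and Pcna were lower and Hmgb2 higher in each FGR part than in the Control part of the same rank. The immediate early counts used for the division had medians of 23, 43 and 69 in the Control parts and 29, 57 and 95 in the FGR parts. Parts of the same rank were thus not matched in immediate early expression between the libraries. The part of immediate early expression and of free RNA in the differences between the libraries was not tested.

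To find cells in the cycle, each cell was thinned at random to 1500 UMIs, no cell being shallower, and the members with at least 1 UMI were counted in it. At least 3 mitotic members were found in 24 of 10687 Control cells (0.225%, exact interval 0.144% to 0.334%) and in 21 of 8618 FGR cells (0.244%, 0.151% to 0.372%). The intervals overlap almost wholly, so no difference in this share was detectable at this number of cells. Near the limit, 87 Control and 66 FGR cells had 2 mitotic members, and 1 and 3 cells had exactly 3, so a limit of 2 would give 1.04% and 1.01% of cells. Without thinning, 0.524% and 0.615% of cells had at least 3 mitotic members, and at least 5 members over all UMIs gave 24 and 22 cells. Over all their UMIs, 21 of 24 such cells in Control and 18 of 21 in FGR held 11 or more of the 17 mitotic members. At least 4 S phase members were found in 18 Control cells (0.168%) and 21 FGR cells (0.244%). That S phase share has no firm edge: 92 and 65 cells had 3 S phase members and 14 and 10 had 4, another random draw gave 0.234% and 0.151%, and without thinning the shares were 4.71% and 4.06%. The order of the libraries in the S phase share thus changed with the draw.

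**Figure D3:**
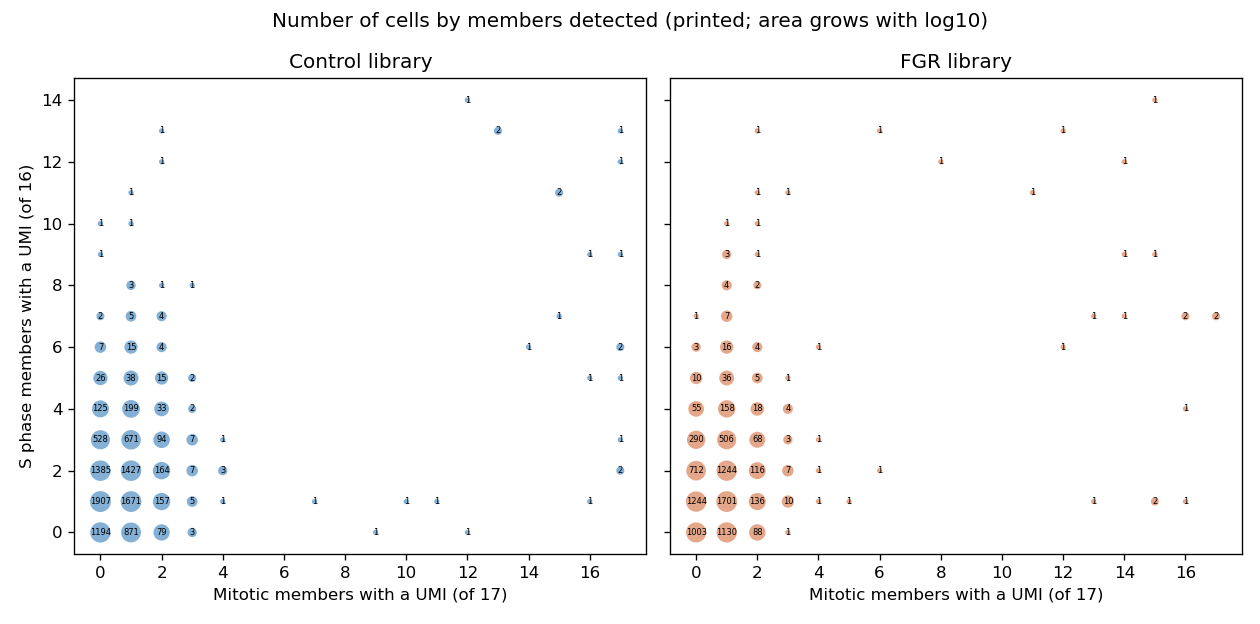
Number of cells by how many mitotic members (horizontal axis, of 17) and S phase members (vertical axis, of 16) had a UMI over all UMIs of the cell, for Control (left) and FGR (right); the printed number is the count of cells and the circle area grows with its log10. Most cells lie at 0 to 2 mitotic members, and a scattered group reaches 11 or more, with S phase counts from 0 to 14.

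The cells with at least 3 mitotic members were microglial by their markers: the median was 12 of 12 in both libraries, and the lowest cell had 11 in Control and 9 in FGR. Their Tmem119 level was 845 CPM against 911 CPM in Control cells with neither set (fewer than 3 mitotic and fewer than 4 S phase members), and 682 against 951 CPM in FGR. They were deeper than other cells, with median totals of 7339 and 6099 UMIs against 4654 and 4916, and medians of 3043.5 and 2688 genes against 2056 and 2067. At least 5 UMIs of other types' markers were found in 5 of the 24 Control and 2 of the 21 FGR cells, which is 20.8% and 9.52% against 14.5% and 16.2% of the cells with neither set. The doublet caller Scrublet put 0 of them among its 6% highest scores in each library, but it called 1 and 0 cells in all, so doublets remain in the data.

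Each member's UMIs were next assigned to cells with at least 3 other mitotic members or to all others, the gene itself being left out of the count that placed the cell. The mitotic members ranged from wholly inside those few cells to mostly outside them. For Bub1 this held for 35 of 35 UMIs in Control and 19 of 19 in FGR. Nusap1, which bundles spindle microtubules, had 95% and 96.8% of its UMIs there, Hmmr, a spindle and centrosome protein, 90.8% and 92.1%, and Ube2c 90.1% and 89.0%. Mki67 had 222 of 257 UMIs there in Control (86.4%) and 209 of 227 in FGR (92.1%). Top2a had 83.1% and 79.4%, Birc5 83.6% and 83.3%, and Ccna2, the cyclin of S and G2 phase, 82.1% and 83.8%. Outside those cells Mki67 stood at 0.656 and 0.397 CPM and Top2a at 1.09 and 1.13 CPM, below their free RNA levels of 1.72 and 1.53 CPM and of 4.81 and 5.35 CPM. Other mitotic members had smaller shares. Ccnb1 had 73.8% and 75.7% of its UMIs there, Tpx2, a spindle assembly factor, 74.1% and 75.0%, Ccnb2 63.0% and 55%, Prc1 59.4% and 61.0%, Aurkb, the kinase of the passenger complex, 52.5% and 47.0%, and Cenpf 49.2% and 44.2%. Cenpa had 25.8% and 24.8%, Cdk1 18.3% and 21.7%, and Hmgb2 6.18% and 3.52%. Outside those cells Cdk1 still stood at 8.45 and 6.54 CPM, beside 10.6 and 11.5 CPM in free RNA, and Hmgb2 at 161 and 230 CPM, beside 134 and 189 CPM.

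Among S phase members, only Rrm2 and Pclaf had most of their UMIs in the cells with at least 3 mitotic members, 75.4% and 87.9% for Rrm2 and 65.5% and 71.0% for Pclaf in Control and FGR. The other 14 had between 0% and 9.85% there. Dut had 4.97% and 9.85%, Rrm1 7.42% and 5.65%, Tyms 5.16% and 5.31%, and Mcm5 4.83% and 5.84%. Pcna had 0.718% and 1.42%, Slbp 0.788% and 1.18%, Rfc2 0.743% and 1.30%, and Ung, at 0 of 65 and 1 of 99 UMIs, 0% (upper limit of the exact interval 5.52%) and 1.01%. Over all S phase members, 1.93% of the UMIs in Control and 2.57% in FGR lay in those cells, against 57.3% and 58.7% of mitotic UMIs without Hmgb2. Most S phase members were nonetheless at a higher level in those cells than outside. Rrm1 was 24.4-fold and 16.5-fold higher, Tyms 16.6-fold and 15.4-fold, Mcm7 7.37-fold and 8.11-fold, Pcna 2.20-fold and 3.96-fold, and Slbp 2.42-fold and 3.30-fold. The interval of the fold lay above 1 in both libraries for each of these 5 genes. The S phase list therefore mixed 2 members found mainly in dividing cells with 14 whose UMIs lay mostly outside them. Cdk1, Cenpa and Hmgb2 were the mitotic members with the lowest shares of their UMIs in dividing cells. For members found in few cells, such as Mcm5 (1.78% and 1.59%) and Ung, UMIs outside the dividing cells are not read as expression there. Mcm5 stood at 3.69 and 3.20 CPM outside those cells, beside 2.75 and 1.91 CPM in free RNA. Ung is set aside for its few UMIs, since free RNA held 0 of its UMIs in Control and 3 in FGR.

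**Figure D4:**
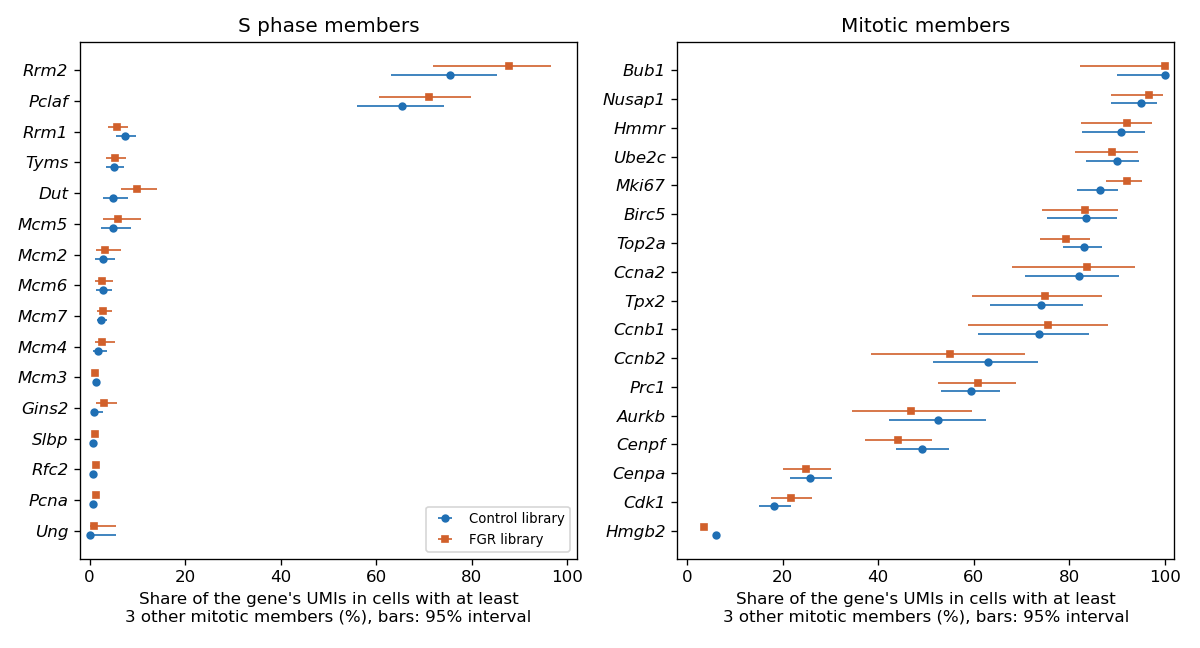
Share of each member's UMIs that lie in cells with at least 3 other mitotic members, in percent, with 95% exact intervals, for S phase members (left) and mitotic members (right); blue circles are Control and orange squares FGR. Rrm2 and Pclaf lie above 65% among S phase members, while mitotic members run from Bub1 at 100% down to Hmgb2 at 6.18% and 3.52%.

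Co-detection was read on the same thinned counts, without placing cells first. For each pair of members the number of cells with both at 1500 UMIs was compared with the product of the shares, and the cells were summed over pairs. A cell was thus counted once for each pair it held. Summed in this way, pairs of mitotic members gave 990 meetings in Control, 7.93 times the 125 that the shares alone would give. In FGR they gave 841, which was 7.83 times, and without Hmgb2 the excess was 58.2 and 84.3 times. At least 2 mitotic members were held by 111 Control and 87 FGR cells. Pairs of S phase members met 1.09 and 1.30 times as often as the shares would give, and S phase with mitotic members 1.28 and 1.33 times. Pairs among the more widely detected genes Pcna, Mcm3, Slbp, Rfc2 and Hmgb2 met 1.02 and 1.08 times as often. Rrm2 or Pclaf with mitotic members other than Hmgb2 met 75.2 and 76.0 times as often. The sums took in pairs expected in fewer than 1 cell. Without Hmgb2, 1 of 120 mitotic pairs in Control and 0 of 120 in FGR had an expected count of at least 1 cell. The largest excess a pair can reach falls as its members are found in more cells, so the excess is not comparable between common and rare genes. These counts share cells and depend on the same few dividing cells, so they are given as descriptions and lend no separate support to a division by phase.

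The dividing cells differed among themselves in S phase members. Over all UMIs, 9 of 24 dividing cells in Control and 8 of 21 in FGR held 9 or more S phase members, and 8 and 5 held 2 or fewer. A limit of 5 S phase members, chosen after these counts were seen, divided them into 15 and 15 cells rich in S phase members and 9 and 6 cells poor in them, in Control and FGR. A poor Control cell of 4382 UMIs held only Cdk1, Cenpa and Hmgb2 of the mitotic members. Those genes had most of their UMIs outside the dividing cells, so its place among them is uncertain. The mitotic sum was 13072 CPM in the rich and 12865 CPM in the poor Control cells, and 9255 and 14338 CPM in FGR. The poor cells were also shallower, with median totals of 5535 against 7614 UMIs in Control and 3469 against 7884 in FGR, and the part of depth in the division was not tested. Of the 15 mitotic members tested, 4 were higher in the poor cells with intervals above 1 in both libraries and 0 were lower in both, beside 0.462% and 0.302% of all genes tested. Because the cells were chosen by these members, the share over all genes is not a matched background for that count. The genes named from this comparison were chosen after their values were seen. Ccnb2, a cyclin B, was 2.81-fold and 3.67-fold higher there, Ccnb1, with too few UMIs to be tested, 2.25-fold and 3.43-fold, Cenpa 2.64-fold and 3.16-fold, Cenpf 2.22-fold and 2.69-fold, and Ube2c 1.97-fold and 2.83-fold. The intervals do not cover how UMIs gather in single cells. In Control, Ube2c had a UMI in 4 of the 9 poor and 13 of the 15 rich cells. Of the 86 Cenpf UMIs in the poor Control cells, 31 came from a single cell and 31 from another. Prc1 had ratios of 0.733 (0.499 to 1.06) and 2.15 (1.31 to 3.44), and Tpx2 of 1.29 (0.748 to 2.20) and 1.43 (0.523 to 3.37). Of 42 other mitotic genes tested, 4 were higher in both libraries and 0 lower. Among them Cdc20, which activates the anaphase-promoting complex, was 2.58-fold and 3.71-fold higher, and the tubulin Tubb4b 2.01-fold and 2.75-fold. The kinases Plk1, with 1.21 (0.606 to 2.34) and 1.77 (0.686 to 4.06), and Aurka, with 1.47 (0.637 to 3.32) and 3.71 (1.198 to 10.8), were not among the 4. Top2a was lower in the poor cells of Control, with a ratio of 0.349 (0.246 to 0.485), and had 1.14 (0.776 to 1.63) in FGR. Nusap1 had 0.398 (0.217 to 0.687) and 1.19 (0.558 to 2.32), and Aurkb 0.411 (0.176 to 0.856) and 0.785 (0.2 to 2.25). Whether the libraries differ in these ratios was not tested. Hmgb2 had 1.01 and 1.26, with intervals that held 1. Of 23 histone genes tested, most of which are transcribed while DNA is copied, 13 were lower in the poor cells of Control and 6 in those of FGR, and the same 6 genes were lower in both. Hist1h1b had a ratio of 0.0746 and 0.327, Hist1h2ae of 0.0756 and 0.209, and Hist1h2ap of 0.173 and 0.264, each with its interval below 1. Others differed: Hist1h2bc was higher in the poor cells, at 3.60 (1.71 to 7.99) in Control and 3.03 (0.650 to 11.9) in FGR, and Hist1h1e had 0.149 (0.0780 to 0.262) and 0.838 (0.527 to 1.28).

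**Figure D5:**
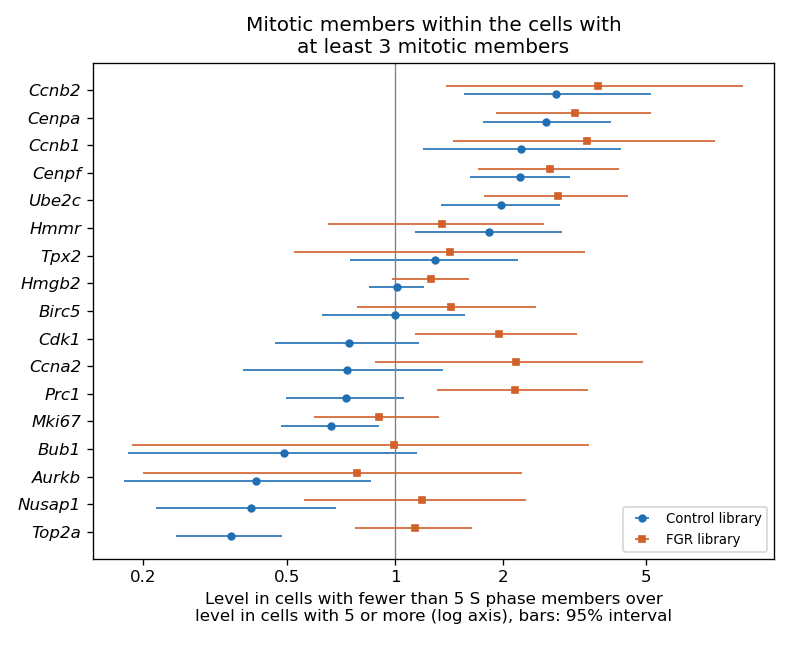
Within the cells with at least 3 mitotic members, level of each mitotic member in cells with fewer than 5 S phase members over its level in cells with 5 or more, on a log axis with 95% intervals; blue circles are Control (9 over 15 cells) and orange squares FGR (6 over 15 cells). Ccnb2, Cenpa, Ccnb1, Cenpf and Ube2c lie above 1 in both libraries, and Top2a lies at 0.349 in Control and 1.14 in FGR.

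Other genes of the cycle, from lists of related genes, were compared between the cells with at least 3 mitotic members and the cells with neither set. A gene was counted when its interval lay beyond 1.5-fold in the same direction in both libraries, which held for 3.27% of the 11914 genes tested in the higher and 0.285% in the lower direction. Of 42 other mitotic genes tested, 41 were higher, the exception being Pttg1, and of 31 other replication genes 21 were higher. Clspn, a checkpoint mediator at forks, had 188 CPM against 1.41 in Control and 152 against 1.35 in FGR, and the thymidine kinase Tk1 had 206 against 3.06 and 256 against 3.54 CPM. Of 23 replication-dependent histone genes tested, 15 were higher, among them Hist1h1b, a linker histone, at 1718 CPM against 1.44 in Control and 3244 against 7.76 in FGR. Among non-members with at least 100 UMIs, those with the largest share of their UMIs in these cells were Pbk, a mitotic kinase (96.6% over both libraries), Aspm, a spindle pole protein (83.0%), Hist1h3c (82.8%), the kinetochore scaffold Knl1 (78.9%), the spindle motor Kif11 (73.1%), Cdca3 (70.5%), the kinetochore motor Cenpe (67.2%), Hist1h1b (66.0%), Cdca2 (64.8%) and Cdc20 (61.6%). These levels were higher in the dividing cells, but most UMIs of the lists lay elsewhere: 2.53% and 3.28% of the UMIs of the other replication genes, 3.39% and 3.38% of those of the other mitotic genes and 3.89% and 2.60% of those of the histone genes were in the dividing cells of Control and FGR.

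Of 11 G1 cyclins, kinases and related genes, Skp2, a ubiquitin ligase subunit that targets p27, was the 1 that counted as higher in the dividing cells, at 9.28-fold and 9.34-fold. Of 20 inhibitors and braking genes tested, 6 were higher and 1 was lower. Cdkn1a, which encodes the inhibitor p21, had 1450 CPM in Control dividing cells against 103 in cells with neither set, and 554 against 118 CPM in FGR, with a UMI in 22 of 24 and 16 of 21 cells. Cdkn2c, an inhibitor of Cdk4 and Cdk6, was 26.4-fold and 18.1-fold higher, its relative Cdkn2d 17.7-fold and 13.4-fold, Wee1, the kinase that restrains Cdk1, 34.4-fold and 11.7-fold, Rbl1, a retinoblastoma relative, 8.99-fold and 10.2-fold, and Lin9, a MuvB subunit, 4.36-fold and 6.92-fold. Btg1, an antiproliferative gene, was lower, at 0.472 and 0.484 of the level in cells with neither set. Among 18 homeostatic microglial genes Cst3 and P2ry12 counted as lower: P2ry12, the purine receptor of resting microglia, had 1638 against 3403 CPM in Control and 1144 against 2706 in FGR. Summed, the homeostatic genes stood at 0.696 (0.681 to 0.712) and 0.675 (0.660 to 0.690) of their level in cells with neither set. Levels here are shares of UMIs, and the dividing cells were deeper, with median totals of 7339 and 6099 UMIs against 4654 and 4916. A lower share is therefore not read as fewer transcripts per cell. Of 20 immediate early genes, Ier2, Zfp36, Junb and Socs3 were lower and none was higher. Of 14 interferon response genes, Cxcl10 was higher, but 17 of its 29 UMIs in Control and 38 of its 64 in FGR came from a single cell. None of 17 genes of activated microglia, 13 of glycolysis and 24 of oxidative phosphorylation counted in either direction, but their sums differed. The activated genes stood at 0.514 (0.485 to 0.544) of their level in cells with neither set in Control and at 0.95 (0.911 to 0.990) in FGR. The glycolysis genes stood at 1.01 (0.893 to 1.13) and 1.22 (1.09 to 1.35), and those of oxidative phosphorylation at 1.18 (1.09 to 1.26) and 1.46 (1.37 to 1.56).

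Cells with at least 4 S phase and fewer than 3 mitotic members numbered 8 in Control and 12 in FGR. Their median was 12 of 12 microglial markers, with a lowest cell of 4 in Control and 11 in FGR, and 2 of 8 in Control and 0 of 12 in FGR held at least 5 UMIs of other types' markers. Against cells with neither set, 0.235% of the genes tested were higher in both libraries and 0% lower. Of the other replication genes, 6 of 31 were higher: Cdc45, which joins the helicase, Gins1, the polymerase subunit Pola1, the ligase Lig1, Uhrf1, which guides maintenance of DNA methylation, and the chromatin remodeller Hells. They rested on few UMIs in these cells of Control and FGR: Cdc45 2 and 2, Gins1 2 and 2, Pola1 3 and 3, Lig1 5 and 7, Uhrf1 3 and 4, and Hells 5 and 2. Of the other mitotic genes 2 of 42 were higher, Stmn1 (20 and 27 UMIs) and Ncapd2 (2 and 4), and of the replication-dependent histone genes 0 of 23. With a stricter limit chosen after the values were seen, at least 9 S phase members over all UMIs, 15 Control and 17 FGR cells remained. Of these, 9 and 8 held at least 5 mitotic members, and 6 and 8 held 2 or fewer. Some cells therefore carried many S phase transcripts with few or no mitotic ones in each library. These cells were chosen by S phase members, so their S phase levels are not a result.

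Between the libraries, over all cells, the wider lists were counted by the 1.5-fold size rule, under which 3.19% of all genes tested were higher in FGR and 1.28% lower. Of 31 other replication genes Cdca7, a cofactor of Hells, was lower in FGR, at 30.0 and 17.6 CPM with a ratio of 0.586 (0.537 to 0.638), and none was higher. Of 42 other mitotic genes the chromosome motor Kif22 was lower, at 3.96 and 1.61 CPM with a ratio of 0.406 (0.307 to 0.532), and none was higher. Both counts are near the share of all genes. Among histone genes, 7 of 23 were higher in FGR and 0 lower, with a median log2 ratio of 0.57. These genes were counted very unevenly in the 3′ libraries. In Control dividing cells rich in S phase members, Hist1h1b had 290 UMIs and Hist1h4c had 1. How fully histone mRNA was captured was not tested, so histone values here and in the dividing cells describe captured UMIs only. Hist1h1d had 28.5 and 142 CPM (ratio 4.97), Hist1h1c 86.5 and 393 CPM (4.55), Hist1h2bn 1.195 and 3.43 CPM (2.87) and Hist1h1b 7.08 and 19.4 CPM (2.75). In cells with neither set Hist1h1d stood at 27.5 and 140 CPM, Hist1h1c at 85.6 and 393 CPM, and Hist1h1b at 1.44 and 7.76 CPM. For Hist1h1d and Hist1h1c the levels were thus close to those over all cells, while most UMIs of Hist1h1b lay in the dividing cells. Among G1 genes Myc was higher, at 32.0 and 54.8 CPM with a ratio of 1.71 (1.61 to 1.82). Among inhibitors Wee1 (2.71) and the stress gene Gadd45b (1.86) were higher, and the antiproliferative gene Tob1 (0.479) and the stress gene Gadd45a (0.566) were lower. Slbp, whose product binds histone mRNA, was lower in the library in which these histone genes were higher. Whether they are linked was not tested.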

How the data were processed

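The authors deposited unnormalized UMI counts for every barcode, without cell filtering. The software is Cell Ranger 4 per the file headers and Cell Ranger 3.0 with Seurat 5.0 per the submitters' processing notes, which also give the build mm10. Groups came from the sample titles. The gene models and strand setting behind the counts were not given in the sources used here. For 38 symbols with several IDs the counts were added. Of 32285 IDs, 32158 were found in GENCODE M21 (GRCm38), which gave gene positions, and promoters came from RefSeq (GRCm38.p6).

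UMIs were summed over the cells of each library (53560293 in Control, 45441515 in FGR) and scaled to CPM. Levels have exact Poisson, ratios exact conditional and shares exact Clopper-Pearson intervals (95%). Scripts used Python 3.11.15, NumPy 2.4.6, SciPy 1.17.1 and Scanpy 1.11.5, whose Scrublet function gave doublet scores with an expected rate of 6%; no cell was removed as a doublet. The size rule was tested on simulated data. No cell was clustered. The genes named are the 33 members, up to 4 genes of each list past the size rule, and the 10 non-members with the largest share of their UMIs in dividing cells. Other list genes described in dividing cells, those compared between cells rich and poor in S phase members, and those in cells with many S phase members were named after their values were seen. The members, lists and limits were chosen with earlier results of these data known. Alternatives covered the limits on cells, doublets, scaling, free RNA, thinning, member counts and size. No sample column was left unused.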

Additional observations from a re-analysis of the deposited data

How the results depend on the processing

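No paired analysis was possible because each group is 1 library with no replicate number, and no library could be left out for the same reason. The share of cells with at least 3 mitotic members was 0.524% in Control and 0.615% in FGR without thinning and 1.04% and 1.01% with a limit of 2 members. Under the other alternatives tried, including another draw, a limit of 4 and the set without Hmgb2, it stayed inside its counting interval. The share with at least 4 S phase members was less settled. It was 0.0741% in Control and 0.0913% in FGR with barcodes of at least 1000 UMIs thinned to 1000, 0.380% and 0.427% thinned to 2000, 4.71% and 4.06% without thinning, 1.03% and 0.998% with a limit of 3 members, 0.0374% and 0.128% with a limit of 5, and 0.151% in FGR with another draw. The ratio of the mitotic sum was 1.28 without barcodes of 5 or more UMIs of other types' markers, 1.30 scaled by the median ratio, 1.34 without the cells of at least 3 mitotic members, and 0.818 without Hmgb2. The ratio of the S phase sum was 0.849 scaled by the median ratio. With intervals beyond a 25% difference, 2 members counted as higher and 1 as lower. The limit of 5 mitotic members over all UMIs and that of 9 S phase members were added after seeing the data. Of the members' own ratios under alternatives, 256 stayed inside their intervals and 7 did not. A ratio could stay inside while its new interval came to hold 1. Without barcodes of 5 or more UMIs of other types' markers this held for Mcm3, Rrm2, Ccna2, Cenpf and Tpx2. Under that alternative the other members with intervals below 1 kept them there. Hmmr (1.17), Ube2c (1.03) and Pclaf (1.13) then had ratios above 1, with intervals that held 1. Further alternatives also brought intervals to hold 1. Ccna2 had 0.705 (0.456 to 1.08) with at most 5% mitochondrial UMIs. Without the cells of at least 3 mitotic members, Ccna2, Ccnb2, Cenpf and Tpx2 held 1, with Ccnb2 at 0.707 (0.371 to 1.31) and Cenpf at 0.798 (0.623 to 1.02). Bub1 gave no ratio without the cells of at least 3 mitotic members. Thinning to 2000 UMIs left out 152 Control and 186 FGR cells. The number of dividing cells limits what could be seen in them: a gene with few UMIs there had intervals wide enough to hold a severalfold difference.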
